A study of Mus musculus with 6 samples.

Results

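Of the genes listed as changed between control and Nkx2-5 hypomorphic embryonic hearts, 68 encode proteins of cell adhesion or of the extracellular matrix. They were taken from 1492 protein-coding genes in the deposited table, as those annotated there to cell adhesion or to the proteinaceous extracellular matrix. Genes that also carried 1 of 10 other annotations, among them heart development, blood vessel development, actin binding, muscle contraction, DNA-binding transcription factor activity and ion transport, were left out. Of 73 genes with either term, 3 were left out in this way (Dst, Ttyh1 and Fgf1) and 2 by name (Wnt2 and Siglec1).

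Whole hearts were dissected from C57BL/6 mouse embryos at E11.5, and total RNA was sequenced from 3 control and 3 hypomorphic hearts. The hypomorph comes from a line with reduced, not absent, expression of the homeobox transcription factor NKX2-5, and the controls are littermates whose label is wild-type. Which alleles each heart carried is not given in the sources used here, and the level of Nkx2-5, which is not a listed gene, was not analysed here. Both groups hold cardiac RNA. Of 8 cardiomyocyte markers, 2 were listed, and they went in opposite directions. Myl7, the atrial myosin light chain, was at 176094 raw reads in control hearts and 199161 in hypomorphic hearts (log2 difference 0.63). Nppa was at 178388 and 80838 raw reads (-0.66). Both are thus listed as changed, and neither shows that cardiomyocyte content was equal between the groups. For each gene the table gives the authors' mean raw reads and the authors' mean normalized log2 value per group, and nothing for individual hearts. Neither the variation among hearts nor their depth is therefore known, no test between the groups was possible, and every value below is the authors' mean for a group. The genes listed are those past the authors' AC test, a test on read counts, at a fold change of at least 1.5. Because the hearts were processed whole, fewer cells of a type and less RNA per cell cannot be told apart.

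The extracellular matrix is the secreted scaffold of collagens, laminins, proteoglycans and linking glycoproteins that surrounds cells and binds growth factors. Adhesion proteins, such as integrins, cadherins and members of the immunoglobulin superfamily, hold cells to this scaffold and to each other. In the embryonic heart, matrix fills the endocardial cushions from which valves form, underlies the epicardium and the endocardium, and separates these layers from the myocardium.

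The matrix genes were mostly listed as lower in hypomorphic hearts, and the adhesion genes were divided between the directions. Of the 68 genes, 43 were lower and 25 higher. The share of lower genes was 63.2% (95% Wilson interval 51.4% to 73.7%, which covers counting over genes only), beside 58.0% over all protein-coding genes listed. Higher genes made up 36.8%, beside 42.0% over all. The 34 genes with the matrix annotation were lower in 28 cases (82.4%). By contrast, the 42 genes with the cell adhesion annotation were lower in 19 cases and higher in 23. Among the 26 genes with the matrix annotation alone, 24 were lower, and the 8 genes with both annotations were evenly split. The median log2 difference, hypomorph minus control, was -0.76 for matrix annotation alone and 0.62 for adhesion annotation alone, beside -0.63 over all protein-coding genes listed. These annotations were chosen with results of these data already known, and no test of the difference was made.

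**Figure D1:**
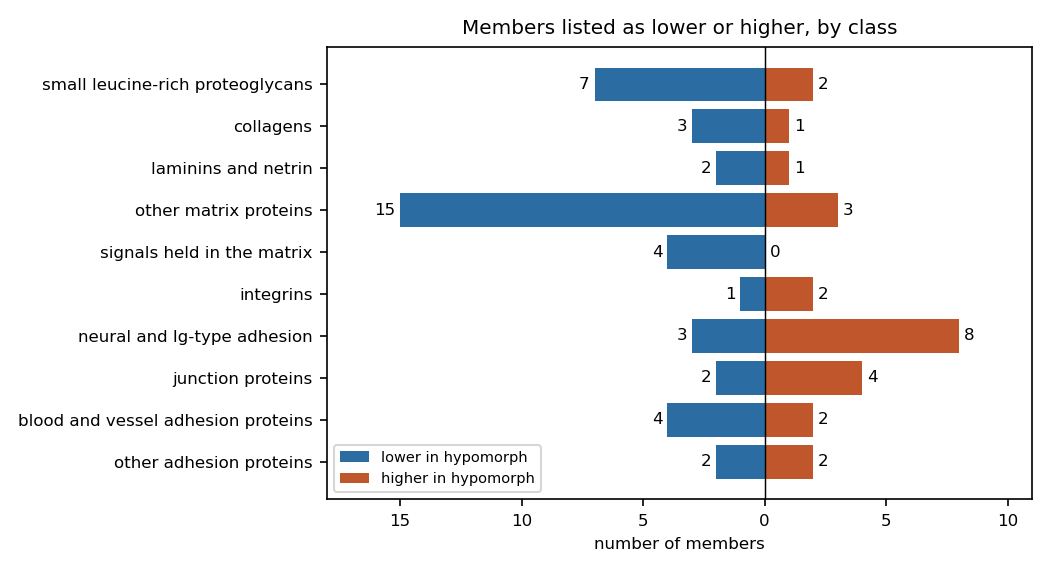
Number of genes listed as lower (left, blue) or higher (right, orange) in hypomorphic hearts in each of 10 role classes of the 68 genes. Other matrix proteins were lower in 15 of 18 cases, whereas neural and immunoglobulin-type adhesion proteins were higher in 8 of 11. Over all protein-coding genes listed, 58.0% were lower and 42.0% higher.

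Most differences were below 2-fold. A difference of at least 2-fold was found for 20 genes (29.4%, beside 32.5% over all protein-coding genes listed). Of these 20, 13 were lower (65%) and 7 higher. Over all protein-coding genes listed, 485 passed 2-fold, of which 267 were lower (55.1%) and 218 higher. The median fold was 1.72 among lower and 1.77 among higher genes. How far the higher genes lie from equality depends on the normalization. The normalized difference exceeded the log2 ratio of the raw means by a median of 0.47 over all protein-coding genes listed, a factor of 1.38 in favor of hypomorphic hearts. From raw means without this factor, all 43 lower genes stayed at least 1.5-fold lower (58.1% of all protein-coding genes listed, or 867, were). But only 4 of the 25 higher genes stayed at least 1.5-fold higher (11.1% of all, or 166, were). These 4 were Icam4, Mag, Pkp3 and Mybph. The other 21 had a smaller excess of raw reads in hypomorphic hearts, and none of the 68 genes changed sign without scaling or with the median factor. The 58.1% and 11.1% are shares of all 1492 genes, of which 865 were listed as lower and 627 as higher. They are not shares of the lower or higher genes alone, so they cannot be compared with 43 of 43 or 4 of 25.

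**Figure D2:**
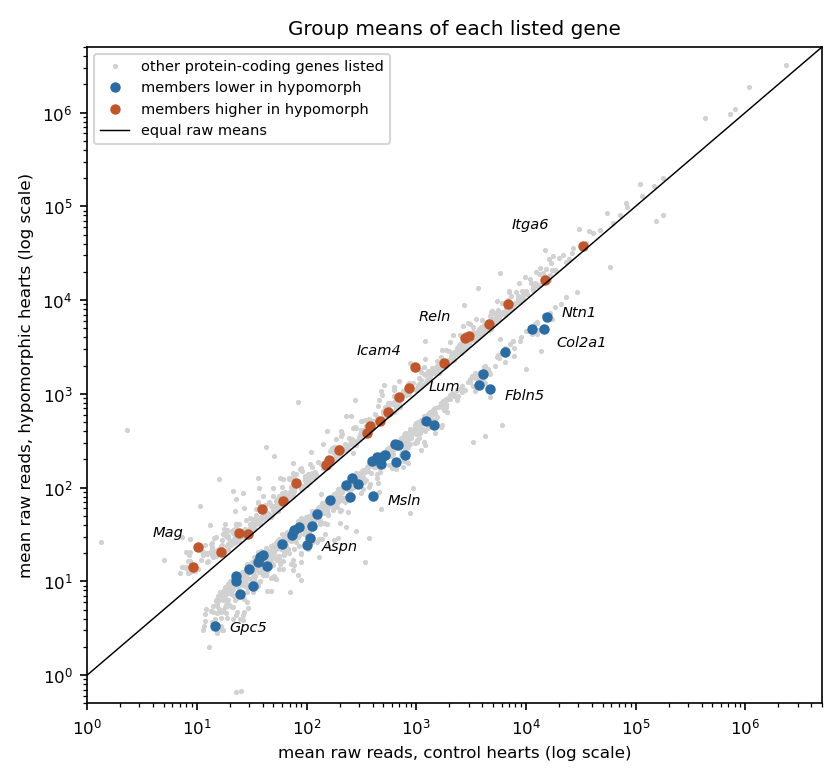
Authors' mean raw reads in control (horizontal) and hypomorphic hearts (vertical), both on log scales, for the 68 genes (blue, lower; orange, higher) and the other protein-coding genes listed (gray); the line marks equal means. The empty band holds genes under the 1.5-fold limit, which are not listed, and its place below the line shows the factor of 1.38, with most orange points close to the line.

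The small leucine-rich proteoglycans bind collagen fibrils and set their spacing. They were lower in 7 of 9 cases (77.8%, beside 58.0% over all protein-coding genes listed), with a median log2 difference of -0.65. Lum (lumican), which had the most reads per kb of exon of this class, had 3736 raw reads in control hearts and 1257 in hypomorphic hearts, a log2 difference of -1.05. Aspn (asporin), a collagen-binding protein that also restrains TGF-beta signaling, was at 101 and 24.4 raw reads (-1.58), the largest difference of the class. Ogn (osteoglycin) was at 688 and 287.9 raw reads (-0.83). Each of these 3 had at least 2.39 times as many raw reads in control hearts. Ecm2, a matrix protein with leucine-rich repeats, was at 489 and 210.0 raw reads (-0.75). Prelp, which links basement membranes to collagen, was at 229 and 106 raw reads (-0.65). Epyc (epiphycan), known from cartilage, was at 38.0 and 18.0 raw reads (-0.61), and Nyx (nyctalopin), known from the retina, at 29.7 and 13.6 (-0.61). Both lie just past the limit for listing and rest on few reads. The class also had genes in the other direction. Podn (podocan) was at 470 and 512 raw reads (0.64), and Omd (osteomodulin) at 152 and 173 (0.66). In raw reads these differ by 1.09 and 1.14 times, so that their listing as higher rests on the normalization.

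Several of these genes are neighbors in the genome. On chromosome 13 of mm9, Ecm2 (49600179 to 49628158), Aspn (49639812 to 49662926), Omd (49678135 to 49687978) and Ogn (49703440 to 49719869) follow each other on the plus strand within 119.7 kb. Omd, listed as higher, lies between Aspn and Ogn, listed as lower, with 15.2 kb and 15.5 kb between the gene ends. The 4 genes lie within the span of Cenpp, a centromere protein gene on the minus strand that was not listed, and the genes flanking Cenpp, Ippk and Nol8, were not listed either. On chromosome 10, Lum (97028135 to 97035337) and Epyc (97106702 to 97145088), both lower, flank Kera (keratocan), which was not listed, and Dcn (decorin) on the other side of Lum was not listed either. On chromosome 1, Prelp (135806881 to 135817991) lies next to Optc (opticin), a leucine-rich proteoglycan outside the 68 genes, which was also lower, at 77.1 and 33.5 raw reads (-0.83). Fmod (fibromodulin), of the same family, lies on the other side of Prelp and was not listed. Among listed genes of this family on chromosome 13, Ecm2 and Aspn thus had the same direction, and Omd was opposite to Aspn and Ogn. The listing of Omd as higher rests on the normalization. Neighbors on chromosomes 10 and 1 had the same direction. A gene that is not listed may have changed by less than 1.5-fold or may have failed the AC test.

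**Figure D3:**
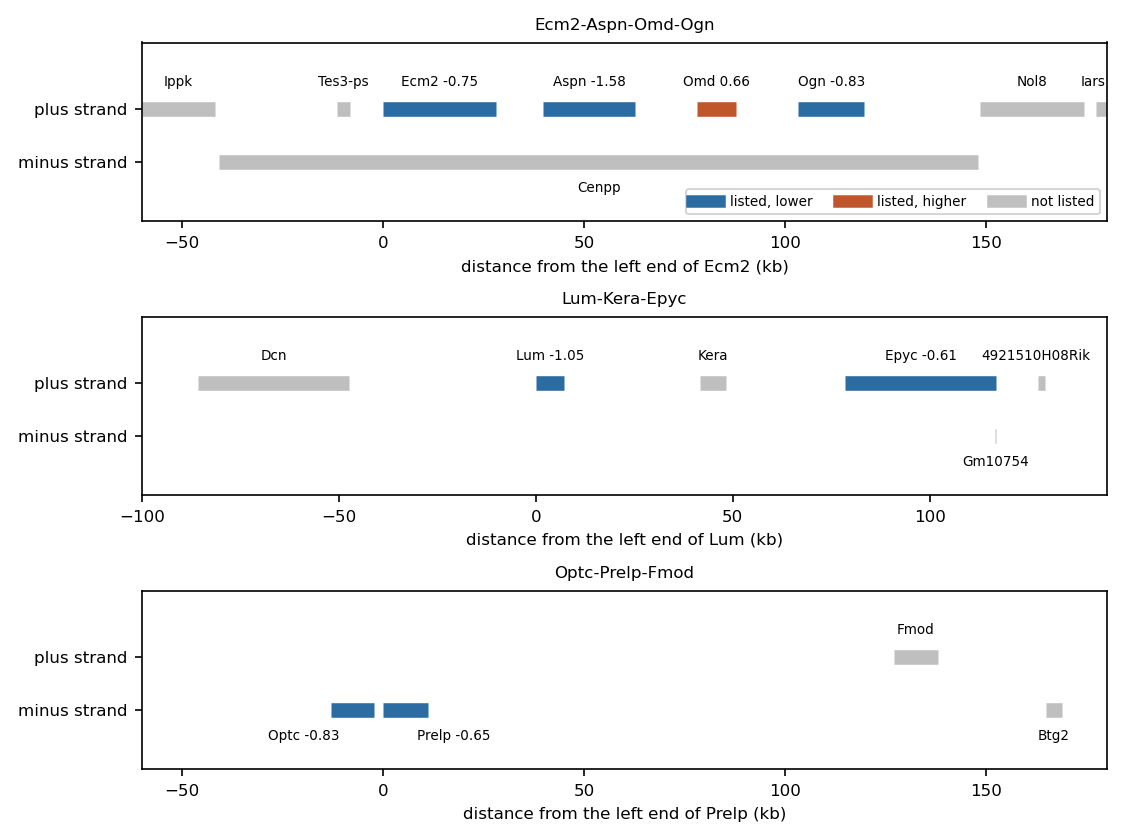
Gene spans at the 3 places where small leucine-rich proteoglycan genes lie together, by distance in kb from the left end of Ecm2, Lum or Prelp and by strand, with the log2 difference of each listed gene. Blue spans were lower, orange higher and gray not listed: Omd, at 0.66, lies between Aspn at -1.58 and Ogn at -0.83.

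The promoters of the 4 chromosome 13 genes are shown because neighboring genes were listed there in opposite directions. They are RefSeq sequences on GRCm38.p6, a later build than mm9, from 250 bases before to 50 after the start site, 5′ to 3′ on the gene's strand. Capitals mark a match to TNAAGTG, a core of NKX2-5 binding sites, or to TGACAG, a core of MEIS sites, on either strand.
Ecm2 promoter, chr13:49504560-49504859, plus strand: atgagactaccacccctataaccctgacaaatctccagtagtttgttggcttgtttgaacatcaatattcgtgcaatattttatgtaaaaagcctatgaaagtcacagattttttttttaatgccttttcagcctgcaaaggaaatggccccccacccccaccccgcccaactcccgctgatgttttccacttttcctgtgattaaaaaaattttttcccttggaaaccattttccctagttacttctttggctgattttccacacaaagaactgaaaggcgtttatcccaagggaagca
Aspn promoter, chr13:49544193-49544492, plus strand: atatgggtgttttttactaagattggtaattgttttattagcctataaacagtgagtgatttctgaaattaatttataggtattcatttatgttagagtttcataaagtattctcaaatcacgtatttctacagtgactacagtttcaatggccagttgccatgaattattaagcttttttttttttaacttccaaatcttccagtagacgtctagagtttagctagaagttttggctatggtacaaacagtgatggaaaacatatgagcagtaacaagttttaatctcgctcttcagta
Omd promoter, chr13:49582212-49582511, plus strand: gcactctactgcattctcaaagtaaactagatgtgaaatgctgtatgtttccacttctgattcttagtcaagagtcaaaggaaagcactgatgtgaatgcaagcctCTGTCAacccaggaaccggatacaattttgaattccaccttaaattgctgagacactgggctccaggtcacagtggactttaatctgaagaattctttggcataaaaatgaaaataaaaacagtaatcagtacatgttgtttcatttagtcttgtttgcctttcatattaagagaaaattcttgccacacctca
Ogn promoter, chr13:49607765-49608064, plus strand: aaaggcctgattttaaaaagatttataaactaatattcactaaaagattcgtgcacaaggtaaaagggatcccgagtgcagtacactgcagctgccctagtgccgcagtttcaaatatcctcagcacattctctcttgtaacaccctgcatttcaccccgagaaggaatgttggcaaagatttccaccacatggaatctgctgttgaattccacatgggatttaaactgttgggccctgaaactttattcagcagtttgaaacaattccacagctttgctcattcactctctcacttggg
The single match in these 4 windows was TGACAG on the opposite strand of the Omd promoter, starting 144 bases before the start site. TNAAGTG matched none of the 4.

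A RefSeq promoter was found for 43 of the 68 genes. TNAAGTG was found in the promoters of 5 of them (11.6%), beside 13.1% of 27025 genes in the whole promoter table, and TGACAG in 12 (27.9%), beside 21.6%. Of the 28 lower genes with a promoter, 4 held TNAAGTG and 5 held TGACAG, and of the 15 higher genes 1 and 7. The cores did not overlap in any of these promoters. Overlap was not counted over the whole promoter table, so its absence here does not set these genes apart. Dpp4 and Epyc held both cores. The TNAAGTG matches are shown with up to 11 bases on each side, since this is the core of the factor that is reduced in these hearts. Capitals mark the match, which reads CACTTNA where it lies on the opposite strand.
Col17a1, chr19:47692114-47692142, minus strand: ctgcccgtctaTAAAGTGtggttcctgaa
Dpp4, chr2:62412393-62412421, minus strand: aagtaacttccCACTTAAgaagcggtagg
Dpp4, chr2:62412297-62412325, minus strand: gatatccaaccTGAAGTGtcattcaaaag
Dpt, chr1:164796475-164796503, plus strand: gtccctctccgTGAAGTGattctctgggg
Epyc, chr10:97644041-97644069, plus strand: gagggagagcaTGAAGTGaccagggatga
Epyc second start, chr10:97647029-97647057, plus strand: tttaagacatgTAAAGTGaggggaattat
Icam4, chr9:21029420-21029448, plus strand: cgttccgcccgCACTTCAgcgcgggcttt
The Icam4 match lies across the start site, and the others lie before it. A match is a run of letters and not a bound site.

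Collagens were lower in 3 of 4 cases (75%, beside 58.0% over all protein-coding genes listed). Col2a1, the fibrillar collagen of cartilage that is also made in the endocardial cushions, had 14626 raw reads in control hearts and 4976 in hypomorphic hearts (log2 difference -1.11). It lies on chromosome 15 of mm9 from 97806033 to 97835155. Col4a3, a chain of the basement membrane network, was at 85.6 and 38.1 raw reads (-0.77), and Col17a1, a transmembrane collagen of epithelial anchoring junctions, at 76.3 and 35.3 (-0.66). Col6a6, a chain of beaded filament collagen, went the other way, at 4584 and 5613 raw reads (0.82), an excess of 1.22 times in raw reads. Of these 4 collagens, Col2a1 had the highest level per kb of exon, with 2426 control reads per kb against 613 for Col6a6.

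Acan, Comp and Crtac1, also known from cartilage and put together here after their values were seen, were each more than 2-fold lower. Acan (aggrecan), the large proteoglycan of cartilage, was at 108 raw reads in control hearts and 29.0 in hypomorphic hearts (-1.397). Comp, which bridges collagen fibrils, was at 248.98 and 79.3 raw reads (-1.13). Crtac1, a secreted protein known from cartilage, was at 32.7 and 9.01 (-1.33). Of a list of 10 other cartilage markers, only Col9a2 was listed, also lower (1826 and 850 raw reads, -0.61), and Matn1, Hapln1 and the other 7 were not. Of 8 markers of cushion and valve mesenchyme, such as Sox9, Twist1 and Postn, none was listed. Only listed genes have values, so the share of all measured genes that were listed is not known here. Without that share, a small count from any marker list does not show that a cell type was unchanged.

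Laminins and their relatives were lower in 2 of 3 cases (66.7%, near the 58.0% over all protein-coding genes listed). Ntn1 (netrin-1), a laminin-related guidance cue, was at 15595 raw reads in control hearts and 6624 in hypomorphic hearts (-0.76), and had the second highest level per kb of all 68 genes in control hearts, 2485 reads per kb. Lama1, a chain of the early embryonic basement membrane laminin, was at 550 and 645 raw reads (0.62), 1.17 times as many in hypomorphic hearts. Lamb3, a laminin chain that lacks the annotations used here, was at 248 and 107 raw reads (-0.76).

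The remaining structural matrix proteins were lower in 15 of 18 cases (83.3%, beside 58.0% over all protein-coding genes listed). Their median log2 difference was -0.86, the lowest median of the 10 classes. Gpc5, a heparan sulfate proteoglycan of the cell surface, had the largest difference of all lower genes (-1.94), but on 14.7 and 3.33 raw reads. The other genes named next rested on more reads. Spock2 (testican-2), a secreted calcium-binding proteoglycan, was at 656 and 188 raw reads (-1.35). Dpt (dermatopontin), which binds collagen and decorin, was at 112 and 39.1 (-0.98), and Mfap5, a microfibril protein, at 297 and 109 (-0.96). Emid1, a secreted glycoprotein with collagen-like repeats, was at 475 and 177 raw reads (-0.97). Spock2, Dpt, Mfap5 and Emid1 were lower by similar factors in raw reads, from 2.68 to 3.49 times.

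Wisp1 and Mmrn2, with the highest control levels of this class (2042 and 1638 reads per kb of exon), differed by less than the class median. Wisp1, a matricellular protein of the CCN family, was at 11270 raw reads in control hearts and 4975 in hypomorphic hearts (-0.71). Mmrn2 (multimerin-2), deposited by endothelial cells around vessels, was at 6445 and 2769 raw reads (-0.75). Smoc1, a basement membrane protein that restrains BMP signaling, was at 1235 and 515 (-0.76). Itgbl1, Lgals3bp and Tnxb lay between -0.78 and -0.59, with Tnxb the gene nearest to the limit for listing among lower genes. Of 9 markers of blood endothelium, Pecam1, Cdh5 and Kdr among them, none was listed, which does not show that they were unchanged.

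Fbln5 (fibulin-5), which organizes elastic fibers, stood apart. Its raw means were 4665 in control and 1113 in hypomorphic hearts, 4.19 times as many in control, whereas the normalized values differed by -0.95, a fold of 1.93. The normalized difference thus exceeded the log2 raw ratio by 1.12, against quartiles of 0.44 and 0.50 over all protein-coding genes listed. Tnfrsf11b deviated in the other direction, by -0.15. These were the only 2 of the 68 genes more than 0.5 away from the median of 0.47, as were 26 of all 1492. A mean of raw reads and a mean of log values weigh single hearts differently, and values for single hearts, which could show this, were not analysed here.

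**Figure D4:**
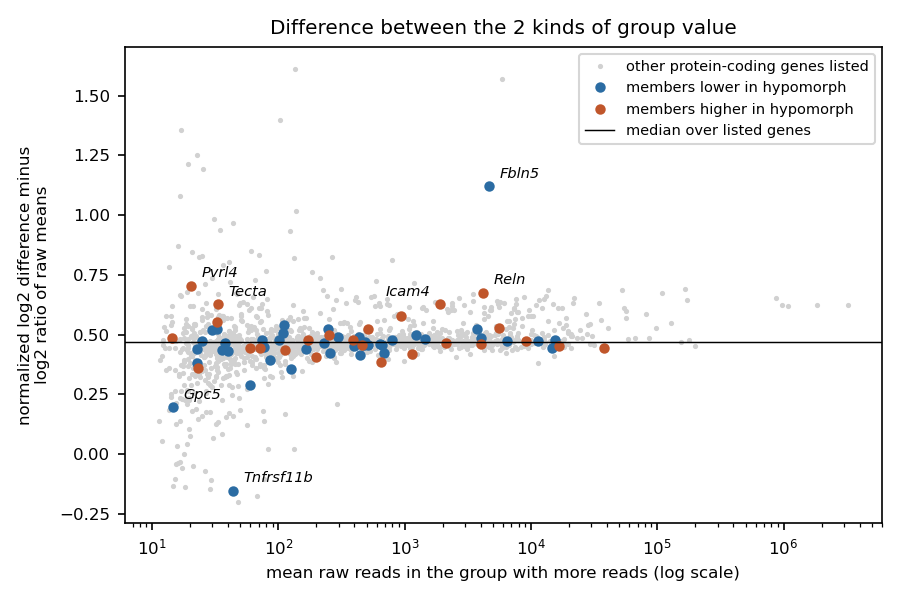
Normalized log2 difference minus log2 ratio of raw means (vertical) against the raw reads of the group with more reads (horizontal, log scale) for the 68 genes and the other protein-coding genes listed. Most genes lie at the line, the median of 0.47, whereas Fbln5 lies at 1.12 and Tnfrsf11b at -0.15.

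Matrix proteins in the higher direction were few. Reln (reelin), a large secreted glycoprotein that guides neuronal positioning, was at 3025 raw reads in control hearts and 4179 in hypomorphic hearts (log2 difference 1.14). Nell1, a secreted protein with EGF-like repeats, was at 80.3 and 112 raw reads (0.92), and Tecta, known from the tectorial membrane of the ear, at 24.3 and 33.0 (1.07). In raw reads the 3 genes were below 1.5-fold.

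All 4 signaling proteins annotated to the matrix were lower, beside 58.0% over all protein-coding genes listed. Tnfrsf11b (osteoprotegerin), a secreted decoy receptor, was at 43.5 raw reads in control hearts and 14.7 in hypomorphic hearts (-1.72). Wnt16 was at 164 and 73.0 raw reads (-0.73), Wnt6 at 22.7 and 11.47 (-0.60), and Vwc2 (brorin), an antagonist of BMP signaling, at 40.0 and 19.0 (-0.64). Apart from Wnt16, these genes had fewer than 50 raw reads in either group.

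**Figure D5:**
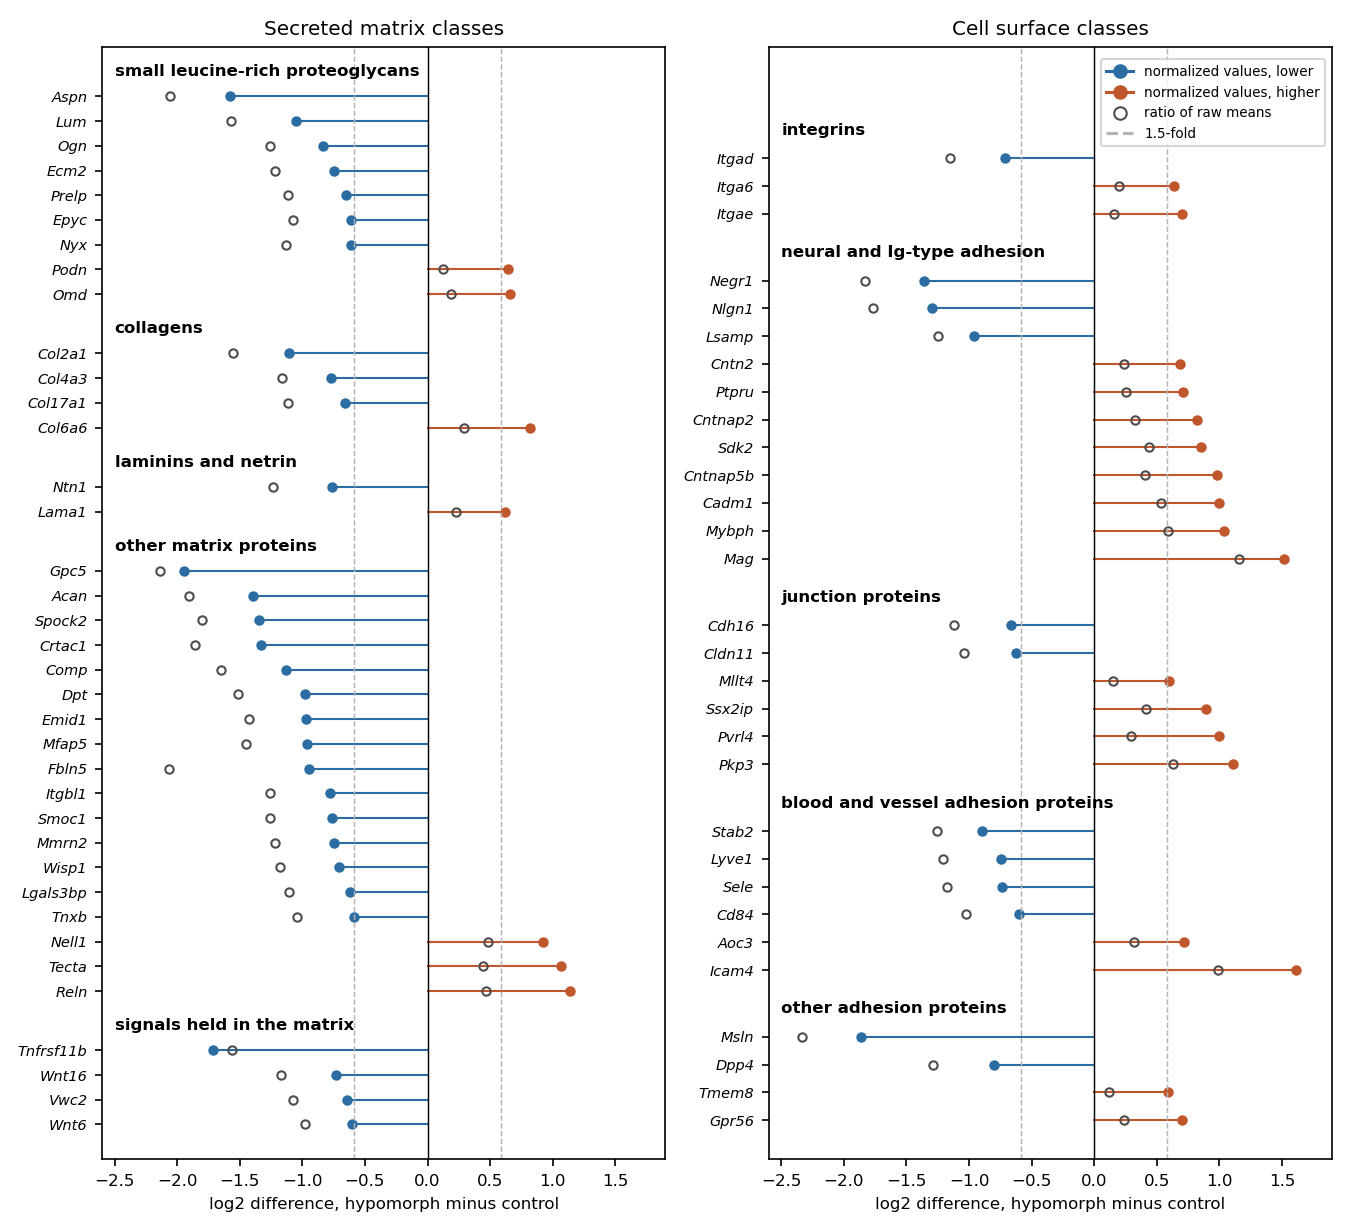
Log2 difference, hypomorph minus control, of the 68 genes except 1 by class: filled points from the authors' normalized values, open circles from the ratio of raw means, and dashed lines at 1.5-fold. The open circles of lower genes stay beyond the dashed line and those of 21 of the 25 higher genes fall inside it.

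At the cell surface, integrins were represented by 3 genes. Itga6, the alpha chain of the main laminin receptors, had the highest level per kb of all 68 genes, with 3656 control and 4185 hypomorph reads per kb, and was at 32994 and 37774 raw reads (0.64), 1.14 times as many in hypomorphic hearts. The leukocyte integrins Itgad (22.7 and 10.2 raw reads, -0.71) and Itgae (29.1 and 32.4, 0.71) were close to the limit for listing on few reads.

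Neural and immunoglobulin-type adhesion proteins were higher in 8 of 11 cases (72.7%, beside 42.0% over all protein-coding genes listed). Their median log2 difference was 0.82. Cadm1, an immunoglobulin-type protein of cell contacts, was at 2757 raw reads in control hearts and 3987 in hypomorphic hearts (0.99). Cntnap5b, of the neurexin superfamily, was at 703 and 933 raw reads (0.98), and Cntnap2 of the same family at 199 and 249.6 (0.82). Sdk2 (sidekick-2), which matches synaptic partners, was at 851 and 1151 raw reads (0.86). These 4 were all under 1.5-fold in raw reads, the largest being Cadm1 at 1.45 times. Mag, a myelin protein, had the largest excess in this class by normalized value (1.52), on 10.3 and 23.0 raw reads, and Mybph, a myosin-binding protein with immunoglobulin repeats, was at 39.5 and 59.6 (1.03). Ptpru, a receptor tyrosine phosphatase, and Cntn2, an axonal contactin, were at 0.71 and 0.69.

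In this class 3 genes were lower. Negr1, a GPI-anchored protein of the IgLON family, was at 789 raw reads in control hearts and 221 in hypomorphic hearts (-1.36), 3.57 times as many in control. Lsamp, of the same family, was at 60.1 and 25.3 raw reads (-0.96). Nlgn1 (neuroligin-1), a postsynaptic partner of neurexins, was at 25 and 7.33 (-1.30). Both IgLON genes listed were thus lower. Of 11 markers of neurons and glia, 3 were listed. Elavl3 was lower (94.7 and 40.9 raw reads, -0.81), and Sox10 (108 and 123, 0.62) and Dcx (179 and 233, 0.86) were higher. The 3 together had 381 raw reads in control hearts and 397 in hypomorphic hearts. These sums leave out the normalization factor of 1.38, so they are not on the scale of the log2 differences. The part of neural and glial cells in these differences was not tested.

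Junction proteins were higher in 4 of 6 cases (66.7%, beside 42.0% over all protein-coding genes listed), with a median log2 difference of 0.74. But among the 4 genes with at least 100 raw reads 2 were lower and 2 higher, and the median was -0.013. Mllt4 (afadin), which ties nectins to actin, was at 14934 raw reads in control hearts and 16559 in hypomorphic hearts (0.60), and Ssx2ip, an afadin-binding protein, at 6833 and 9109 (0.89). Pvrl4, a nectin, was at 16.7 and 20.45 raw reads (1.001), and Pkp3 (plakophilin-3), a desmosome protein, at 9.29 and 14.3 (1.11). Afadin, its binding protein and a nectin were thus listed in 1 direction, though by 1.11 to 1.33 times in raw reads. Cdh16, a cadherin known from kidney epithelium, was at 635 and 292 raw reads (-0.66), and Cldn11, a tight junction claudin, at 440 and 214 (-0.63).

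Adhesion proteins of blood and vessel cells were lower in 4 of 6 cases (66.7%, near the 58.0% over all protein-coding genes listed). Lyve1, a hyaluronan receptor of lymphatic endothelium and some macrophages, was at 515 raw reads in control hearts and 223 in hypomorphic hearts (-0.75), and Stab2, a scavenger receptor for hyaluronan, at 126 and 52.7 (-0.90). Cd84, of leukocytes, was at 258 and 127 raw reads (-0.60), and Sele (E-selectin) at 36.1 and 16.0 (-0.74). Of 9 macrophage markers sought by exact symbol, 2 were found, Lyz2 (3289 and 305 raw reads) and Mrc1 (743 and 287), both lower. These 2 summed to 4032 in control and 593 in hypomorphic hearts. Some genes are listed under older symbols, such as Gpr56, so a marker sought under a newer symbol may have been missed. The count and the sums therefore cover only the 2 genes found, not the whole list. The part of macrophage content in the values of Lyve1, Stab2 and Cd84 was not tested.

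Icam4, a red cell ligand of integrins, had the largest excess in hypomorphic hearts of the 68 genes, with 966 raw reads in control hearts and 1914 in hypomorphic hearts (1.61). It was 1.98 times as many in raw reads, and of the 4 higher genes past 1.5-fold without scaling it was the only 1 with more than 100 reads. All 6 globin genes listed were higher too, by log2 differences of 0.87 to 1.67, with a sum of 5525470 raw reads in control hearts and 8158050 in hypomorphic hearts. The part of red cell content in the value of Icam4 was not tested. Aoc3, an amine oxidase of vessels that serves leukocyte adhesion, was at 159 and 198 raw reads (0.72).

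Msln (mesothelin), a surface protein of mesothelial layers, had the largest difference of lower genes with at least 50 reads, from 408 raw reads in control to 81.0 in hypomorphic hearts (-1.87), 5.04 times as many in control. Of 8 epicardial markers, Wt1, Tbx18 and Tcf21 among them, none was listed, which does not show that they were unchanged. Dpp4, a peptidase that binds matrix proteins, was at 4027 and 1647 raw reads (-0.80). Gpr56, an adhesion G protein-coupled receptor, was at 1809 and 2132 raw reads (0.70), and Tmem8 at 357 and 387 (0.59), the gene nearest to the limit among higher genes.

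A search by symbol for other matrix and adhesion families found 12 listed genes that lack the annotations used here. It did not cover small leucine-rich proteoglycans such as Optc beyond a few symbols. Of the 12 genes, 10 were lower (83.3%, beside 58.0% over all protein-coding genes listed). The lower ones included Col23a1, a transmembrane collagen (6451 and 3064 raw reads, -0.60), Thbs2, a matricellular thrombospondin (1170 and 582, -0.60), Pcdhac2, a protocadherin (499 and 204, -0.83), and the claudins Cldn1, Cldn3 and Cldn15, from -0.59 to -0.88. The higher ones were Cldn13, a claudin of red cell precursors (1545 and 2213 raw reads, 1.11), and Col5a3 (22.0 and 32.3, 1.03). Mmp25 was lower (88.2 and 41.45 raw reads, -0.70), and no ADAMTS protease, TIMP inhibitor, syndecan, elastin, fibrillin, fibronectin or periostin gene was listed.

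Other properties of the 68 genes bear on how firmly they were measured. All were placed on mm9, on 19 chromosomes, with at most 11 on 1 chromosome. In whichever group had more reads, the median was 258 raw reads for lower genes and 456 for higher genes, beside 142 and 513 over all protein-coding genes listed. Fewer than 50 raw reads in both groups were found for 15 genes. Median exon length was 3.94 kb for lower and 5.12 kb for higher genes. Exons of 12 genes overlap those of another annotated gene, such as Ssx2ip with Dnase2b, Mybph with Adora1, Mllt4 with Tcte2 and Itgad with Cox6a2, and since the counting is not stated to use strand, their reads can include those of the other gene. Of 9 genes annotated to calcium ion binding 8 were lower (all genes listed with this term, 67.9% lower), and of 11 annotated to the basement membrane 9 (all listed, 81.2%).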

How the data were processed

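Total RNA from whole E11.5 hearts of 3 control and 3 hypomorphic embryos was made into libraries with the Truseq kit and run by the authors on the Genome Analyzer IIx of Illumina. Reads were aligned by them to mm9 with TopHat (version not given in the sources used here; CASAVA 1.4 is named in the submitters' processing notes) and analyzed on RefSeq genes in Avadis NGS. The deposited raw values are estimated counts, averaged by group and not scaled. The deposited normalized values are log2 means by group, each gene set to its own baseline by a method not given in the sources used here. Columns of the authors' own fold changes were not used. Listed genes passed the authors' AC test with a fold change of at least 1.5, so the table's sum is not a depth, and the depth of each heart and its precision are unknown.

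The log2 difference was computed as the normalized hypomorph value minus the normalized control value. With 1 value per group no count model, p-value or error between hearts could be had. Counts and medians were set beside all protein-coding genes listed. Positions and exon lengths came from GENCODE M1 (mm9), and promoters from RefSeq (GRCm38.p6). Scaling, read, fold and annotation alternatives were computed. The script was tested on simulated data. The 68 genes and the lists were chosen with earlier results of these data known. Values are given for genes with a fold of at least 2, for the most abundant and most changed genes of each class, for all small leucine-rich proteoglycans and for genes off the median by 0.5. One gene that this rule selects is counted but not reported by name. Other genes named were chosen after their values were seen. Of the marker list not mentioned elsewhere, foregut epithelium, 0 of 8 genes were listed. Markers of every list were sought by exact symbol, so a gene listed under an older symbol may have been missed. Software was Python 3.11.15 with pandas 2.3.3 and numpy 2.4.6, Wilson intervals came from scipy 1.17.1, and figures were drawn with matplotlib 3.10.9.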

Additional observations from a re-analysis of the deposited data

How the results depend on the processing

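The share of lower genes, 63.2% of 68, was 91.5% (43 lower, 4 higher) from raw means without scaling, where it was 83.9% over all protein-coding genes. It was 82.4% of 34 genes with the matrix annotation and reversed to 45.2% of 42 genes with the adhesion annotation. With a fold of at least 2, 20 genes were left. With at least 100 raw reads 47 genes were left, 61.7% of them lower, beside 53.5% of 932 over all protein-coding genes listed. The median factor and no exclusion of genes left number and share close to the main values. Class medians from raw means without scaling fell under 1.5-fold for integrins (0.15), junction proteins (0.22) and neural and immunoglobulin-type proteins (0.33). For other adhesion proteins the median was -0.59, the midpoint of a class with 2 lower and 2 higher genes. With at least 100 raw reads the class medians were -0.15 for 2 collagens and -0.013 for 4 junction proteins, beside 0.74 for all 6 junction proteins. The genes left in both classes were evenly split, so these medians are midpoints between a lower and a higher gene. The other families, 83.3% lower, were 100% lower (10 of 10) without scaling. Of the 68 single genes, 21 fell under 1.5-fold without scaling and 5 with the median factor, and none changed sign. Of all 1492 protein-coding genes listed, 1033 were past 1.5-fold in either direction without scaling and 1404 with the median factor. No paired analysis was possible because values by heart are not in the table used here, and for that reason neither the replicate block nor leaving out a replicate was run.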
